A study of Homo sapiens with 6 samples.

Results

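FIP1L1, PDGFRA and the receptor tyrosine kinases related to PDGFRA (PDGFRB, KIT and FLT3) were examined in RNA-seq libraries of EoL-1, a human cell line from an eosinophilic leukaemia whose known driver is the fusion of FIP1L1 to PDGFRA. These 5 genes were chosen by name, as the fusion partners and the sister class III receptors, out of the 35052 genes that the deposited transcripts could be joined to. Estimated reads were summed over each gene's transcripts, and TPM (a level per transcript length, scaled to the same total in every library) were kept for each transcript. CSF1R, the remaining class III receptor, was set beside them.

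The series holds 3 libraries of EoL-1 cells in which ATF3 and JUN were both knocked out and 3 libraries of EoL-1 cells in which JUN alone was knocked out, all from polyA RNA. Every library therefore carries a JUN knockout, and the comparison asks what the added loss of ATF3 changes. The labels' treatment text names CRISPR/Cas9 and an ATF3 knockout for all 6 samples, whereas the genotype labels separate the groups as given here, and the genotype labels were followed. The labels do not say whether the replicates are separate cultures or clones, so the p-values refer to library-to-library spread, which may be technical. Same-numbered libraries of the genotypes share a clone code outside the labels, so the 6 libraries may not be independent. Unedited EoL-1 cells were not analysed here, so nothing below sets these levels against cells with JUN.

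FIP1L1 is a subunit of the cleavage and polyadenylation machinery that binds RNA near the site where a transcript's 3′ end is cut. PDGFRA and PDGFRB are receptors for platelet-derived growth factors, KIT for stem cell factor, FLT3 for FLT3 ligand and CSF1R for colony stimulating factor 1 and IL-34. These receptors share a kinase domain split by an insert and a juxtamembrane segment that holds the kinase inactive until ligand binds. In chronic eosinophilic leukaemia a deletion on the long arm of chromosome 4 can place the front of FIP1L1 before the kinase of PDGFRA, with the break inside the exon that encodes the juxtamembrane segment, and the resulting kinase is active without ligand and sensitive to imatinib.

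The transcript set that the submitters quantified holds an annotated transcript of this kind. ENST00000507166, with a gene identifier of its own (ENSG00000282278), runs from chr4:53377839-54295272 (GRCh38, plus strand) and joins 12 exons of FIP1L1 to 12 exons of PDGFRA. It is called the joined transcript below. Its junction is the annotation's and was not read from these libraries, so the exact break in EoL-1 cells cannot be told from the files. The sequences below are shown because the join decides what the estimate for this transcript can rest on. In the first, lower case marks the last 60 bases from FIP1L1 exon 12 and capitals the first 60 bases from PDGFRA. In the second, from the FIP1L1 transcript FIP1L1-202, the same lower-case bases run on into FIP1L1 exon 13, in capitals. In the third, PDGFRA exon 12 (chr4:54274841-54274973) is printed whole, with the bases kept in the joined transcript in capitals. All are from GENCODE 29, 5′ to 3′.
joined transcript: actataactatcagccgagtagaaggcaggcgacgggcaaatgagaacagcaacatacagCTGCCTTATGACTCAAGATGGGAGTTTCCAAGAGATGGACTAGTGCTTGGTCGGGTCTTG
FIP1L1-202, exons 12 and 13: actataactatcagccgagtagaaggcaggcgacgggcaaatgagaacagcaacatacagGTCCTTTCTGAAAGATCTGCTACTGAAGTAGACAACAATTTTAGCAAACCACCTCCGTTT
PDGFRA-201, exon 12: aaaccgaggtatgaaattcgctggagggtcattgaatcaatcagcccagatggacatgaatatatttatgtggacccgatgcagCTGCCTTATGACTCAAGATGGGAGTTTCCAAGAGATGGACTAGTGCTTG

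Of the 133 bases of PDGFRA exon 12, the joined transcript leaves out 84 and keeps 49. It has 1017 bases from FIP1L1 and 1533 from PDGFRA, 2550 in all, and ends 148 bases into the last PDGFRA exon, which is 3123 bases long. Its annotated coding sequence reads PDGFRA exons in the frame used by PDGFRA-201 in 11 of the 11 exons compared. It holds 12 PDGFRA exons, so not every one was compared. The shared FIP1L1 exons are read in the frame used by FIP1L1-202 in 12 of 12. The 1530 coding bases taken from PDGFRA are 46.8% of the coding sequence of PDGFRA-201. The joined transcript holds 2520 words of 31 bases, counted by start position. Of these, 987 also occur in FIP1L1 transcripts and 1506 in PDGFRA transcripts. The remaining 27 occur in no other annotated transcript, and all of them lie across the join. Reads that do not cross the join can thus belong to a parent gene as well as to the joined transcript, and the deposited values divide them by the submitters' quantification, with no error given for that division.

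**Figure D1:**
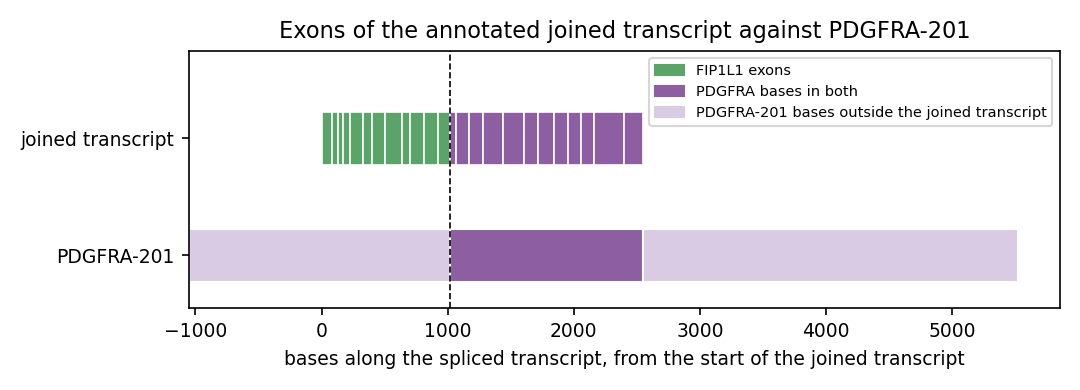
Exons of the joined transcript (upper bar, white lines between exons) and the spliced transcript PDGFRA-201 (lower bar), in bases along the transcript from the start of the joined transcript. The dashed line is the join after 1017 bases of FIP1L1; PDGFRA-201 has 2068 bases before it, 1533 shared bases and 2975 bases beyond the end of the joined transcript.

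The libraries held 26146998 to 29567970 estimated reads. The sample labels call the cells eosinophils. Of 10 eosinophil markers, EPX, PRG3, CLC, IL5RA and GATA1 had no reads in any library. PRG2, SIGLEC8 and CCR3 had at most 16 reads in a library. RNASE2, an eosinophil granule ribonuclease, had 823 to 2488 reads, and RNASE3 had 143 to 485. ATF3 was at 13.1, 10.0 and 7.63 CPM (reads scaled to a common library size) in ATF3/JUN double knockout libraries, against 20.2, 13.7 and 8.89 CPM in JUN knockout libraries. JUN was at 13.8, 16.6 and 25.7 CPM in double knockout libraries, against 13.2, 27.2 and 24.6 CPM in JUN knockout libraries. Both mRNAs were thus present in all libraries and the ranges of the genotypes overlapped. In the 3 pairs with the same replicate number, ATF3 was lower in the double knockout library each time (log2 fold change −0.48, SE 0.32, edgeR adjusted p = 0.931). An edit that stops the protein need not lower the mRNA, so these values check the labels only weakly.

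Across all genes tested, the libraries resembled each other in sets that cut across the genotypes. The mean chi-square per gene between a pair of libraries was 12.5 to 22.6 among double knockout replicates 1 and 2 and JUN knockout replicate 1, and 13.7 to 20.4 among double knockout replicate 3 and JUN knockout replicates 2 and 3. Between these sets it was 30.8 to 73.5. No label accounts for the sets, and they hold unequal numbers of each genotype. JUN followed the sets, at 13.2 to 16.6 CPM in the first and 24.6 to 27.2 CPM in the second, whereas the ATF3 ranges of the sets overlapped. Values of members that follow the sets are pointed out below, and the part the sets have in the results was not tested.

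The levels of the receptor genes fell into 3 tiers. With all transcripts counted, FLT3 and FIP1L1 were high, PDGFRA, CSF1R and the joined transcript were in the middle, and KIT and PDGFRB were close to no signal. With protein-coding transcripts alone FIP1L1 lay closer to PDGFRA than to FLT3, at medians of 14.3 TPM for FIP1L1, 9.84 for PDGFRA and 49.1 for FLT3. By median TPM over the 6 libraries, FLT3 was at 69.4, FIP1L1 at 42.5, PDGFRA at 10.9, CSF1R at 9.45, the joined transcript at 6.25, KIT at 0.0511 and PDGFRB at 0.0479. Among all 35052 genes FLT3 ranked 1599, FIP1L1 2614, PDGFRA 6822 and the joined transcript 8252. The levels of FIP1L1, PDGFRA and the joined transcript depend on how reads that fit a parent gene as well as the joined transcript were divided. They are thus not separate levels of fusion mRNA and unjoined mRNA.

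Each gene was compared with the next in this order by the log2 ratio of TPM within a library, with an exact two-sided sign-flip test over the 6 libraries and Benjamini-Hochberg adjustment over the 6 pairs. The order, and so the pairs, came from the same TPM values, so these tests are not independent support for the order. They show only how steady each ratio was over the libraries. They also take the 6 libraries as independent, although same-numbered libraries share a clone code. The smallest p that 6 libraries allow is 0.0312. FLT3 was above FIP1L1 in 6 of 6 libraries, by 1.45-fold as a geometric mean (exact adjusted p = 0.0469). FIP1L1 was above PDGFRA in 6 of 6 libraries, by 4.12-fold (exact adjusted p = 0.0469). CSF1R was above the joined transcript in 6 of 6 libraries, by 1.59-fold (exact adjusted p = 0.0469), and the joined transcript was above KIT in 6 of 6 libraries, by 101-fold (exact adjusted p = 0.0469). PDGFRA and CSF1R did not differ beyond their spread, with PDGFRA higher in 4 of 6 libraries by a mean log2 ratio of 0.17 ± 0.37 (SD, n = 6, exact adjusted p = 0.375). KIT and PDGFRB did not differ beyond theirs either, with a mean log2 ratio of 0.19 ± 1.32 (SD, n = 6, exact adjusted p = 0.75). With protein-coding transcripts alone, the mean log2 ratio of FIP1L1 over PDGFRA was 0.48 in place of 2.04, and that of FLT3 over FIP1L1 was 1.68 in place of 0.53 (exact adjusted p = 0.0375 for each). On the same count KIT stood above PDGFRB (log2 ratio 0.79, exact adjusted p = 0.0375), the joined transcript stood above CSF1R (log2 ratio of CSF1R over joined −0.51, exact adjusted p = 0.0938) and PDGFRA stood above CSF1R (log2 ratio 1.23, exact adjusted p = 0.0375). The distance of FIP1L1 from FLT3 and PDGFRA, and the order within the middle and low tiers, therefore rest on which transcripts are counted.

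**Figure D2:**
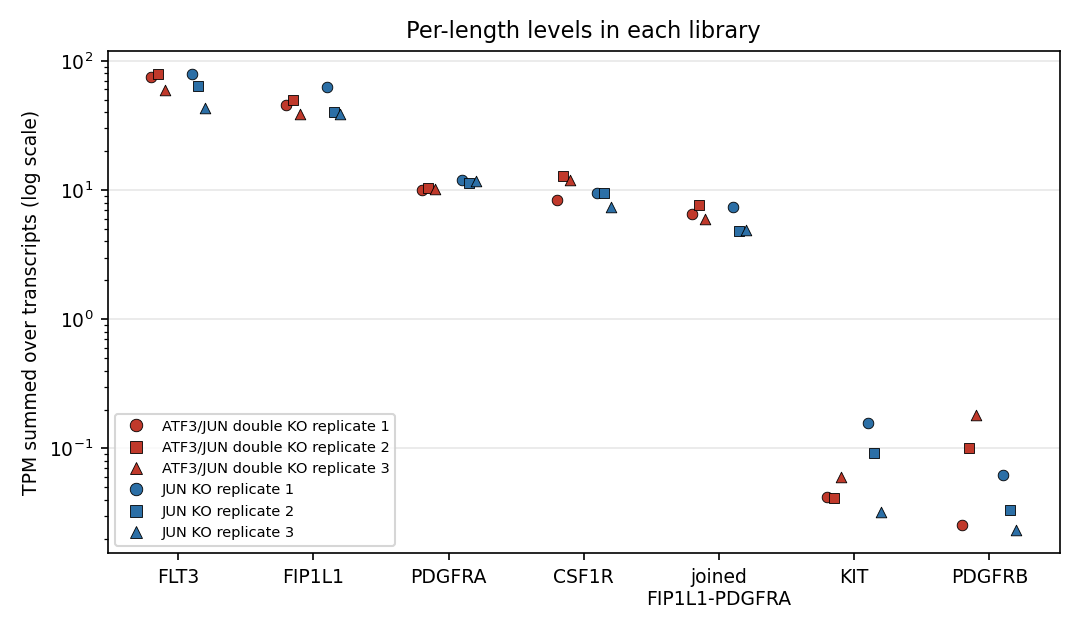
TPM summed over transcripts on a log axis for the 5 genes, CSF1R and the joined transcript, in order of median level. Each point is a library, with ATF3/JUN double knockout libraries left (red) and JUN knockout libraries right (blue); KIT and PDGFRB lie under 0.2 TPM in all 6 libraries, far below the other genes.

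Between genotypes, no member changed past the threshold. Counts were tested with edgeR's quasi-likelihood test over 12954 genes with Benjamini-Hochberg adjustment, and a gene was called at an adjusted p under 0.05. FIP1L1, PDGFRA and FLT3 passed the low-count filter and 0 of these 3 were called, beside 0.0% of all genes tested. At an unadjusted p under 0.05, 753 genes (5.81%) were found and none of the 3 members was among them. DESeq2, run on the same counts, called 71 genes (0.548%), again without a member. Fewer cells of a type and less RNA per cell cannot be told apart in these bulk libraries.

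FIP1L1 (ENSG00000145216, chr4:53377643-53460861, plus strand) was close to level between the genotypes. It had 45.0, 43.1 and 39.2 CPM in double knockout libraries, against 49.2, 40.3 and 43.3 CPM in JUN knockout libraries. The ranges overlapped and the highest value belonged to a JUN knockout library. The log2 fold change of ATF3/JUN double knockout over JUN knockout was −0.06 (SE 0.10, 95% interval −0.31 to 0.19, edgeR adjusted p = 0.976). Per length, FIP1L1 was at 44.4 ± 5.44 TPM in double knockout libraries and 47.0 ± 13.1 TPM in JUN knockout libraries (SD, n = 3 each). The wider spread in the JUN knockout group came from replicate 1, at 62.1 TPM, against 39.8 and 39.0 TPM in the other libraries of that group. These TPM followed the sets of libraries described above. Double knockout replicates 1 and 2 were at 45.3 and 49.4 TPM, in the set with JUN knockout replicate 1. Double knockout replicate 3 was at 38.6 TPM, in the set with the lower JUN knockout libraries. As CPM, the ranges of the sets overlapped.

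The 13 annotated FIP1L1 transcripts shared the reads unevenly, and 8 of them had a mean of at least 0.5 TPM. The largest TPM values belonged to short transcripts. FIP1L1-210, of 582 bases at the front of the gene, averaged 13.4 TPM and held 11.7% of the gene's reads as a mean over libraries. It was at 14.1, 17.9 and 12.3 TPM in double knockout libraries, against 17.3, 10.6 and 8.36 TPM in JUN knockout libraries. These values followed the sets of libraries, with double knockout replicates 1 and 2 and JUN knockout replicate 1 above the rest. FIP1L1-206, of 341 bases near the gene's end, averaged 12.6 TPM and held 3.00% of the reads. It was at 13.7, 9.47 and 8.93 TPM in double knockout libraries, against 22.3, 11.5 and 9.99 TPM in JUN knockout libraries. In both cases the ranges of the genotypes overlapped, and the summed TPM of FIP1L1 leans on transcripts that hold few of its reads. The protein-coding transcripts alone summed to 13.6 ± 2.54 TPM in double knockout libraries and 14.8 ± 1.39 TPM in JUN knockout libraries (SD, n = 3 each).

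The longer FIP1L1 transcripts took most of the reads. FIP1L1-201 held 21.6% of them, FIP1L1-202 held 19.9%, FIP1L1-203 held 17.6% and FIP1L1-213 held 10.98%. FIP1L1-202 was steadier than these, at 2.90, 2.69 and 1.97 TPM in double knockout libraries and 2.57, 2.14 and 2.00 TPM in JUN knockout libraries. Its values too followed the sets of libraries, higher in double knockout replicates 1 and 2 and JUN knockout replicate 1 than in the rest. FIP1L1-201 varied from library to library within a genotype, at 7.39, 2.04 and 4.68 TPM in double knockout libraries and 4.70, 4.85 and 5.88 TPM in JUN knockout libraries. FIP1L1-203 was at 4.77, 1.63 and 2.31 TPM in double knockout libraries and 5.98, 3.31 and 2.98 TPM in JUN knockout libraries. FIP1L1-213 was listed at 0 in double knockout replicate 1 and at 7.57 and 3.80 TPM in the other double knockout libraries, against 2.85, 2.52 and 3.39 TPM in JUN knockout libraries. Where FIP1L1-201 was low, in double knockout replicate 2, FIP1L1-213 and FIP1L1-207 were at their highest, at 7.57 and 5.37 TPM in that library. Estimates for overlapping transcripts of a gene can trade reads, and the files give no error for this. FIP1L1-207 averaged 3.31 TPM and FIP1L1-209 averaged 1.27 TPM over the 6 libraries. FIP1L1-212 lay just under the limit, at 0.50 TPM, and the 4 others averaged 0.02 to 0.24 TPM.

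By position, 2 FIP1L1 transcripts end before the annotated join and held 820 estimated reads over the 6 libraries, 8 cross it and held 5775, and 3 start after it and held 355. Reads of FIP1L1 transcripts from beyond the join, which the joined transcript does not contain, were therefore assigned in every library, 41.3 to 96.0 of them to the transcripts that start after the join.

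**Figure D3:**
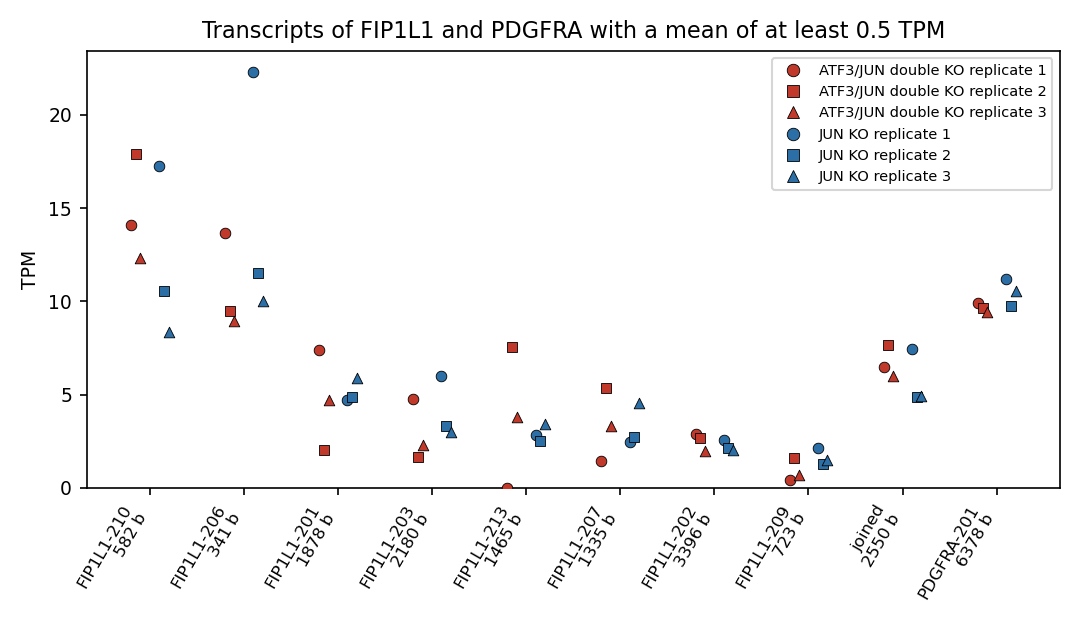
TPM of the 8 FIP1L1 transcripts and the PDGFRA transcript with a mean of at least 0.5 TPM, with the joined transcript between them and lengths in bases under the names. Each point is a library (ATF3/JUN double knockout red and left, JUN knockout blue and right); the short FIP1L1-210 and FIP1L1-206 reach the highest values, and PDGFRA-201 lies between 9.44 and 11.2 TPM.

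The genes of the machinery that FIP1L1 works in did not pass the test either. All 20 genes listed for 3′ end processing, FIP1L1 itself among them, were tested. Of these, 8 had a fold change above 0 and 12 below, none was called, and their median log2 fold change was −0.04. Over all genes tested the median was 0.0032, with 50.7% above 0. PAPOLA, the main nuclear poly(A) polymerase, was at 326 ± 9.49 CPM in double knockout libraries and 312 ± 23.8 CPM in JUN knockout libraries (SD, n = 3 each). CPSF1, the large scaffold subunit of the cleavage and polyadenylation specificity factor, was at 259.9 ± 9.72 CPM in double knockout libraries and 275 ± 9.65 CPM in JUN knockout libraries. NUDT21, the small subunit of cleavage factor Im, was at 244 ± 25.3 CPM in double knockout libraries and 234 ± 20.8 CPM in JUN knockout libraries.

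PDGFRA (ENSG00000134853, chr4:54229097-54298247, plus strand) was lower in every double knockout library, by a margin that did not pass the test. It had 1750, 1749 and 1977 reads in double knockout libraries, against 2027, 2006 and 2066 reads in JUN knockout libraries. As CPM these were 70.4, 66.3 and 69.9 in double knockout libraries, against 74.5, 72.2 and 79.5 in JUN knockout libraries. The groups did not overlap. Over all genes tested, 5.94% were lower in the double knockout with no overlap and 6.31% higher, and PDGFRA was the only 1 of the 3 tested members among these. It was lower in the double knockout within both sets of libraries described above. The log2 fold change was −0.13 (SE 0.08, 95% interval −0.31 to 0.05, edgeR adjusted p = 0.914), and the exact two-sided permutation test over libraries gave p = 0.1, the smallest that 3 against 3 can give. With the reads of the joined transcript added to PDGFRA, the log2 fold change was −0.06.

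Of the 10 annotated PDGFRA transcripts, 1 held nearly all reads. PDGFRA-201, which encodes the full receptor, took 99.0% of them as a mean over libraries, at 9.91, 9.65 and 9.44 TPM in double knockout libraries, against 11.2, 9.76 and 10.6 TPM in JUN knockout libraries. The lowest JUN knockout value lies inside the double knockout range, so for the transcript alone the groups overlapped. PDGFRA-205, with a retained intron, was just under the limit at 0.493 TPM, PDGFRA-202 averaged 0.310 TPM, and 4 transcripts had no reads in any library. The 5 PDGFRA transcripts that end before the join held 1 read over all 6 libraries, the 3 that cross it held 11477, and the 2 that start after it held 96.0. The deposited values give 1 estimate for each transcript and no coverage along it, so reads from the 31.4% of PDGFRA-201 that lies before the join cannot be told apart from reads of the 45.2% that lies beyond the end of the joined transcript.

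The joined transcript received reads in every library. It had 428, 514 and 468 estimated reads in double knockout libraries, against 501, 368 and 355 in JUN knockout libraries. These are 6.49, 7.63 and 6.01 TPM in double knockout libraries, against 7.42, 4.84 and 4.89 TPM in JUN knockout libraries. JUN knockout replicate 1 lay among the double knockout libraries and the other JUN knockout libraries lay below them. The levels followed the sets of libraries described above. In the set with JUN knockout replicate 1 the joined transcript was at 17.2 and 19.5 CPM in double knockout libraries, against 18.4 CPM in the JUN knockout library. In the other set it was at 16.5 CPM in the double knockout library, against 13.2 and 13.7 CPM in JUN knockout libraries. The log2 fold change as a gene was 0.23 (SE 0.16, 95% interval −0.14 to 0.60, edgeR adjusted p = 0.931). Without JUN knockout replicate 1 it was 0.40, the highest of the values with a library left out, and it was not called there either.

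Set against its parents, the joined transcript took 19.7, 22.7 and 19.1% of the reads of PDGFRA and itself together in double knockout libraries, against 19.8, 15.5 and 14.7% in JUN knockout libraries (exact permutation p = 0.3). It took 27.7, 31.1 and 29.7% of the reads of FIP1L1 and itself together in double knockout libraries, against 27.2, 24.7 and 24.0% in JUN knockout libraries. The second share was higher in all 3 double knockout libraries, with means of 29.5 ± 1.72% in double knockout libraries and 25.3 ± 1.69% in JUN knockout libraries (SD, n = 3 each). Its exact two-sided permutation p was 0.1, the smallest this design allows, and 0.2 after adjustment over the 4 shares tested. By TPM the same share was 12.5, 13.4 and 13.5% in double knockout libraries, against 10.7, 10.9 and 11.2% in JUN knockout libraries (exact permutation p = 0.1). The ratio of the joined transcript to PDGFRA-201 in TPM was 0.655, 0.791 and 0.637 in double knockout libraries, against 0.662, 0.496 and 0.464 in JUN knockout libraries (exact permutation p = 0.3). The joined transcript, as annotated, thus stood below PDGFRA-201 in all 6 libraries. It stops 148 bases into the last PDGFRA exon, and 45.2% of PDGFRA-201 lies beyond that end. Reads from that stretch could not be assigned to the joined transcript, whichever mRNA they came from. These shares and ratios therefore do not rank mRNA of the fusion against mRNA of unjoined PDGFRA.

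Across transcripts, edgeR tested 51188 and called none (0.0%), while 3018 had an unadjusted p under 0.05 (5.9%) and DESeq2 called 826 (1.61%). Of the 24 transcripts of FIP1L1, PDGFRA and the joined gene, 13 were tested, and none was called by edgeR or DESeq2 or had an unadjusted p under 0.05 in edgeR. The TPM of the groups overlapped for all 13, and over all transcripts tested they did not overlap for 14.4%. With only 13 transcripts, whose estimates share reads, this is not read as a difference from that share. Their log2 fold changes ran from −1.36, for the low FIP1L1-205, to 0.38, for FIP1L1-213.

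**Figure D4:**
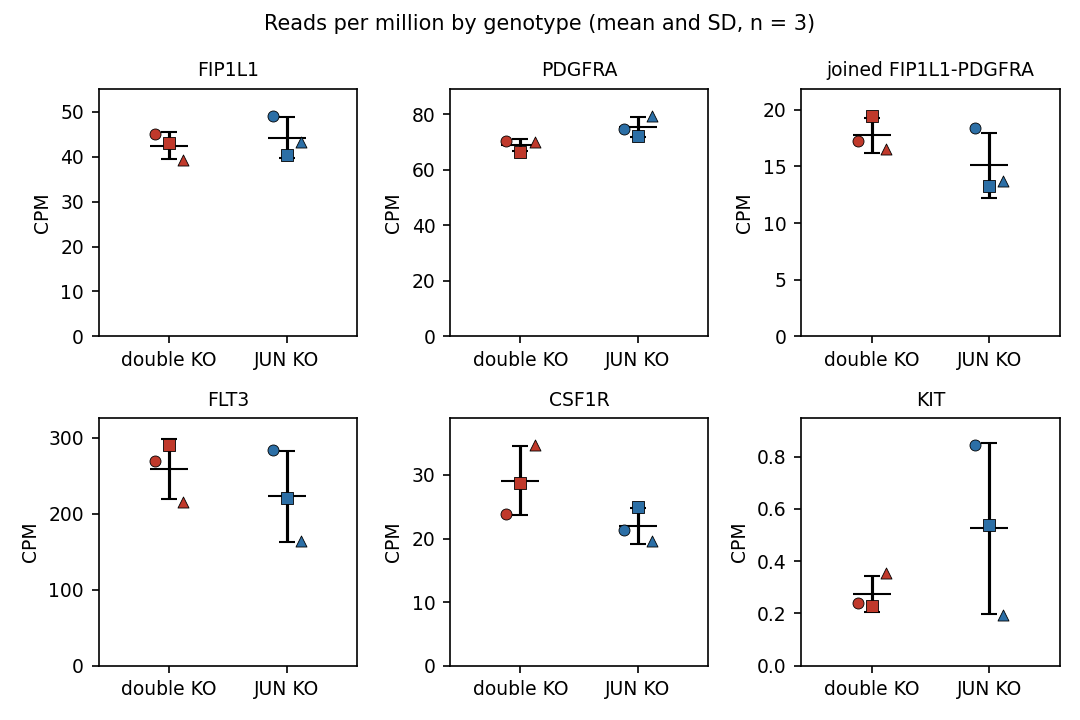
CPM by genotype for FIP1L1, PDGFRA, the joined transcript, FLT3, CSF1R and KIT, on linear axes from 0. Circles, squares and triangles are replicates 1, 2 and 3, and the black marks give the mean and SD of 3 libraries, with ATF3/JUN double knockout left (red) and JUN knockout right (blue); PDGFRA is the gene among them whose groups do not overlap.

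FLT3 (chr13:28003274-28100592, minus strand), a receptor of early myeloid and lymphoid progenitors that is often mutated in acute myeloid leukaemia, was the highest of these receptors in the 6 libraries. It had 6710, 7666 and 6077 reads in double knockout libraries, against 7735, 6122 and 4270 reads in JUN knockout libraries. As CPM these were 269.8, 291 and 215 in double knockout libraries, against 284, 220.2 and 164 in JUN knockout libraries. Replicate 3 was the lowest library of each genotype, and the ranges overlapped. FLT3 followed the sets of libraries too, since double knockout replicates 1 and 2 and JUN knockout replicate 1 were all above the remaining 3 libraries. The log2 fold change was 0.21 (SE 0.21, 95% interval −0.28 to 0.71, edgeR adjusted p = 0.957). It was 0.04 without JUN knockout replicate 3 and 0.43 without JUN knockout replicate 1, and was called in neither case.

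All 3 FLT3 transcripts had reads. FLT3-201, which encodes the receptor, held 79.6% of them as a mean over libraries. FLT3-202, annotated as a target of nonsense-mediated decay, held 8.22, 25.9 and 23.9% in double knockout libraries, against 22.4, 12.2 and 24.4% in JUN knockout libraries (exact permutation p = 0.9). The low shares fell in 1 library of each genotype.

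KIT (chr4:54657918-54740715, plus strand), whose gene follows PDGFRA on the chromosome at a distance of 359670 bases, was almost silent. It had 6, 6 and 10 reads in double knockout libraries, against 23, 15 and 5 reads in JUN knockout libraries, which are 0.0424, 0.0415 and 0.0599 TPM in double knockout libraries, against 0.159, 0.0920 and 0.0321 TPM in JUN knockout libraries. The higher values were JUN knockout replicates 1 and 2, while replicate 3 was the lowest of all. KIT failed the low-count filter. Fitted without that filter, over 19663 genes, its log2 fold change was −0.93 (SE 0.54, edgeR adjusted p = 0.869). Mast cells normally carry KIT, and of 5 mast cell markers TPSAB1 and HDC had no reads, while the summed level of the list was 0.201 to 0.495 CPM in double knockout libraries and 0.324 to 0.478 CPM in JUN knockout libraries.

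PDGFRB (chr5:150113837-150155872, minus strand), the receptor of pericytes and other stromal cells, was as low. It had 4, 6 and 11 reads in double knockout libraries, against 10, 6 and 4 reads in JUN knockout libraries, and all 6 values lay between 0.0233 and 0.181 TPM. Without the low-count filter its log2 fold change was 0.08 (SE 0.54, edgeR adjusted p = 0.999). Of 7 fibroblast and mural markers, PDGFRB among them, COL3A1 and LUM had no reads. ACTA2, smooth muscle actin, had 112 to 424 reads, and the list summed to 5.15 to 15.7 CPM in double knockout libraries and 5.18 to 6.98 CPM in JUN knockout libraries. At 4 to 23 reads a library, a difference between genotypes was not detectable for KIT or PDGFRB.

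CSF1R (chr5:150053291-150113372), the receptor of the monocyte and macrophage lineage and the gene next to PDGFRB, had 594, 758 and 983 reads in double knockout libraries, against 579, 695 and 508 reads in JUN knockout libraries. As CPM these were 29.1 ± 5.44 in double knockout libraries and 21.9 ± 2.79 in JUN knockout libraries (SD, n = 3 each). The ranges overlapped, and the double knockout library was the higher in each of the 3 pairs with the same replicate number. Its log2 fold change of 0.41 (SE 0.16) had an unadjusted p of 0.0412 and an edgeR adjusted p of 0.854, and so was not called.

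Of 8 ligand genes 4 passed the filter, 3 with a fold change above 0 and 1 below, and none was called. Their median log2 fold change was 0.14, against 0.0032 over all genes. PDGFA, a ligand of PDGFRA, was at 13.8 ± 4.15 CPM in double knockout libraries and 14.0 ± 3.16 CPM in JUN knockout libraries (SD, n = 3 each). PDGFC, another PDGFRA ligand, was at 9.88 ± 3.08 CPM in double knockout libraries and 9.0 ± 1.56 CPM in JUN knockout libraries. FLT3LG, the FLT3 ligand, was at 7.91 ± 0.47 CPM in double knockout libraries and 7.15 ± 1.36 CPM in JUN knockout libraries. Per length, FLT3LG had a median of 8.34 TPM and PDGFA of 6.44 TPM, near CSF1R and the joined transcript. PDGFB had no reads in any library, and PDGFD, KITLG and IL34 had at most 6 reads in a library.

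The genes listed for signalling close to an active receptor, those that carry the signal and those that limit it, all passed the low-count filter. All 26 listed adaptors, phosphatases, kinases and ubiquitin ligases were tested, 20 with a fold change above 0 and 6 below, none called, with a median log2 fold change of 0.08. GRB2, the adaptor that links receptors to RAS, was at 334 ± 14.6 CPM in double knockout libraries and 331 ± 6.92 CPM in JUN knockout libraries (SD, n = 3 each). PTPN6, the phosphatase SHP-1, was at 328 ± 10.1 CPM in double knockout libraries and 336 ± 34.0 CPM in JUN knockout libraries. PIK3CD, the leukocyte catalytic subunit of phosphoinositide 3-kinase, was at 256 ± 5.72 CPM in double knockout libraries and 265 ± 12.6 CPM in JUN knockout libraries. For each of these the means differed by less than the larger of the SDs.

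Among 6 tyrosine kinases that are rearranged in eosinophilic neoplasms, 5 were tested, 2 with a fold change above 0 and 3 below, and none was called (median log2 fold change −0.13). This list holds the members PDGFRA, PDGFRB and FLT3, and its median is the value of PDGFRA itself. ABL1 was at 156 ± 3.42 CPM in double knockout libraries and 147 ± 4.17 CPM in JUN knockout libraries (SD, n = 3 each; log2 fold change 0.09, edgeR adjusted p = 0.944). None of the 3 VEGF receptors, the closest relatives of the class III receptors, passed the filter. KDR had no reads, FLT1 had 6.42 to 14.6 estimated reads and FLT4 had 1 to 7.

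The stretch of chromosome 4 from FIP1L1 to KIT held genes of very unequal level. The gap between FIP1L1 and PDGFRA is 768235 bases, and CHIC2 and GSX2 are the protein-coding genes that lie wholly within it. CHIC2, which encodes a small membrane-associated protein and whose loss is used in the clinic as a sign of the FIP1L1-PDGFRA deletion, was at 5.22 ± 0.34 CPM in double knockout libraries and 6.09 ± 0.94 CPM in JUN knockout libraries (SD, n = 3 each), from 138 to 195 reads (log2 fold change −0.22, edgeR adjusted p = 0.942). GSX2 had no reads, and LNX1, which overlaps the end of FIP1L1, had 0 to 2 reads. CHIC2 RNA was therefore measured in all 6 libraries, at a level that says nothing of how many copies of the gene the cells carry. Within 1 megabase of the span the annotation lists 17 protein-coding entries, the joined transcript included. Of these 10 were tested, 2 with a fold change above 0 and 8 below, and none was called, with a median log2 fold change of −0.06. TMEM165, a Golgi membrane protein, was at 89.0 ± 3.70 CPM in double knockout libraries and 89.7 ± 4.97 CPM in JUN knockout libraries, and SRD5A3, an enzyme of dolichol synthesis, was at 52.1 ± 10.4 CPM in double knockout libraries and 55.6 ± 7.87 CPM in JUN knockout libraries. GSX2, KDR, PDCL2 and NMU had no reads in any library.

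**Figure D5:**
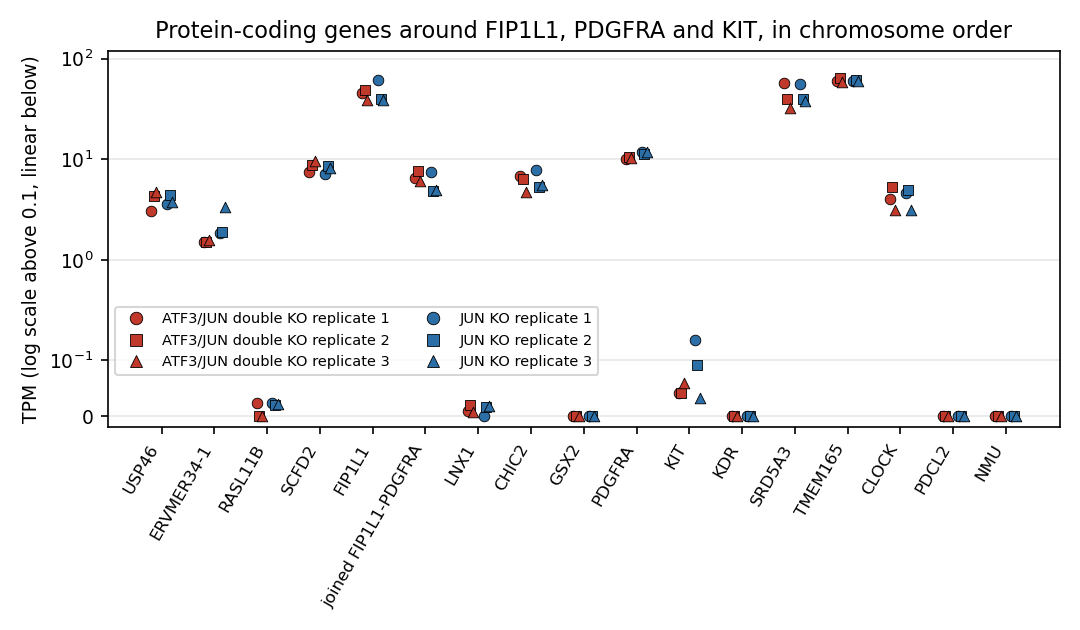
TPM of the protein-coding entries within 1 megabase of the span from FIP1L1 to KIT, in chromosome order; the axis is a log scale above 0.1 TPM and linear below. Each point is a library (ATF3/JUN double knockout red and left, JUN knockout blue and right); the genes next to PDGFRA on either side (GSX2 and KIT) are at or near 0, while CHIC2 and SCFD2 are expressed.

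For the 3 members at 1 CPM or more, the genes with the most similar pattern over the 6 libraries were sought among 11365 genes, by the root mean square difference of log2 CPM around each gene's mean. For PDGFRA these included CCNC (0.018) and RPS6KB1 (0.027), against a deviation of PDGFRA itself of 0.082. CCNC was at 123, 116 and 124 CPM in double knockout libraries, against 130.0, 129.6 and 138 CPM in JUN knockout libraries. For FIP1L1 they were GNB5 (0.015), ACP1 (0.027) and PCMTD2 (0.032), against 0.106 for FIP1L1 itself. For FLT3 they were GPR63 (0.044), HECA (0.046) and DNASE1L1 (0.054), against 0.289 for FLT3 itself.

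JUN and ATF3 are members of the AP-1 and ATF families, which bind DNA as dimers, among other sites at the motifs TGACTCA and TGACGTCA. These motifs, and TGANTCA, in which any base may stand in the middle, were searched on both strands in the 250 bases before each RefSeq start (GRCh38.p14) of the 5 genes. Neither TGACTCA nor TGACGTCA was found in any of these windows. The looser TGANTCA had a match before the upstream start of PDGFRA, which read TGAATCA and so was not the AP-1 consensus. Over 35116 RefSeq windows of this length, 4.203% held TGACTCA, 6.57% held TGANTCA and 1.65% held TGACGTCA.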

How the data were processed

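RNA from 6 EoL-1 libraries was prepared with a stranded polyA kit, per the labels' protocols. Per the submitters' processing notes, FastQC 0.11.9 and Salmon 1.6.0 were used with hg38; the release of the transcript set is not given in the sources used here. The deposited files give, for each of 177456 transcripts, an estimated count of reads (not whole, not normalized) and TPM, with lengths. Of these transcripts 167027 (94.1%) were matched to GENCODE 29 by identifier without version; the rest held 3.58 to 3.71% of reads and were left out. FIP1L1-202, PDGFRA-201 and PDGFRB-201 have other lengths in the files than in GENCODE 29, so positions along them are the annotation's.

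Estimated counts were summed per gene, rounded, filtered (filterByExpr), scaled by TMM and tested with edgeR 4.0.16 (R 4.3.3) as ATF3/JUN double knockout over JUN knockout; CPM are TMM-scaled. Deposited TPM were summed per gene for levels between genes. Shares were compared by exact permutation of the libraries. The script was tested on simulated data. DESeq2 1.42.0, its scaling in edgeR (RLE), other low-count filters, a transcript length offset, a replicate block, leaving out each library, protein-coding transcripts alone and moving the joined reads to a parent gene were tried. Intervals cover the spread between libraries; estimates carry a division error that the files do not give.

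Same-numbered libraries share a clone code in the names of the deposited files, which the labels do not state, and the correlation of their deviations around each genotype's mean was 0.33, 0.096 and 0.41; they were taken as paired in the blocked fit. Genes were named as members, as the 3 most abundant of each list and as the 3 most alike in pattern, of which 1 is not reported here. The members and lists were chosen with earlier results of these data known.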

Additional observations from a re-analysis of the deposited data

How the results depend on the processing

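Leaving out the low-count filter, another scaling, DESeq2, a replicate block and leaving out each library called no member and no FIP1L1, PDGFRA or joined transcript. Over all genes, edgeR called 0, DESeq2 71 and edgeR with no filter 1; over all transcripts edgeR called 0 and DESeq2 826. With the replicate number as a block, which pairs the libraries by clone code, 0 genes and 0 transcripts were called and no call on a member changed (FLT3 log2 fold change 0.24, adjusted p = 0.543; joined transcript 0.24, adjusted p = 0.614). The log2 fold change of FIP1L1 became 0.020 with the joined reads added to it, and ran from −0.13 to 0.023 with a library left out (0.023 when JUN knockout replicate 1 was dropped). With protein-coding transcripts alone, the log2 ratio was 0.48 for FIP1L1 over PDGFRA, against 2.04 with all transcripts, and 1.68 for FLT3 over FIP1L1, against 0.53. It was 1.23 for PDGFRA over CSF1R, −0.51 for CSF1R over the joined transcript and 0.79 for KIT over PDGFRB; the cause was not tested, beyond fewer transcripts being counted.

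With 1 library left out, 5 libraries cannot give an exact p under 0.0625, so the order of levels could not pass the test. The log2 ratios then ran from 0.49 to 0.61 for FLT3 over FIP1L1, 1.97 to 2.11 for FIP1L1 over PDGFRA, 0.60 to 0.73 for CSF1R over the joined transcript, 6.49 to 6.88 for the joined transcript over KIT and −0.070 to 0.54 for KIT over PDGFRB (−0.046 and −0.070 when JUN knockout replicate 1 or 2 was dropped). The difference in the FLT3-202 share, double knockout minus JUN knockout, was −0.33 percentage points and ran from −4.06 to 5.23, at 5.23 when double knockout replicate 1 was dropped, and 1.05 and 2.02 when JUN knockout replicate 1 or 3 was. Depth limits KIT and PDGFRB, at 4 to 23 reads a library.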
